A study of Rattus norvegicus with 18 samples.

Results

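LOC102555248 is an uncharacterised rat gene, described here by its transcript level in the whole hippocampus of 18 adult male rats. It is 1 of 20909 genes with a value in the deposited table, found there by its symbol. The gene was chosen from the measured values of these same rats, as the gene with the smallest adjusted p between the bred lines, so its levels in the lines are given as a description and without a test.

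A symbol of LOC and a number is a placeholder that NCBI gives to a gene without an official name, and it says nothing of a product or a function. Libraries made by polyA capture, as here, measure polyadenylated RNA, so the values are those of a polyadenylated transcript or transcripts assigned to the gene. LOC102555248 was not matched to the RefSeq gene or promoter tables of the GRCr8 assembly, and no position, neighbouring gene or sequence is given for it. Which genomic region was counted under this symbol is unclear, since the stated annotation is that of Ensembl whereas LOC symbols are assigned by NCBI; its levels are therefore those of the row with this symbol. The hippocampus is a forebrain structure known for its part in memory, in the response to new surroundings and in anxiety-like behaviour.

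Each line is represented by 6 rats with 1 library each. The bHR line (bred High Responder) and the bLR line (bred Low Responder) are in generation 37 of selective breeding for high or low locomotor activity in an unfamiliar environment, and these rats were sacrificed at P160 to P167 (postnatal days). The bIR rats (bred Intermediate Responder) are a first-generation cross of bHR with bLR, so each carries a chromosome set from either line; they were sacrificed at P126 to P134. Age and cross therefore cannot be told apart wherever bIR differs from bHR or bLR. Locomotor activity was scored at P50 to P75 in all lines, whereas the elevated plus maze was run at P65 to P75 in bIR and at P160 to P167 in bHR and bLR. The labels give no litter, batch or sequencing lane, so rats of a line may share these. Rats are named by line and number, as in HR_10.

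Totals of 31.1 to 66.6 M reads per library were recovered from the deposited values, on average 39.2 M for bHR rats, 45.5 M for bIR rats and 48.7 M for bLR rats. The hippocampal neuron markers fixed for the check of the tissue were measured in all 12 cases and stood at summed levels of 3365 to 4712 FPM (fragments scaled for library depth) over all 18 rats. Transthyretin (Ttr), the leading transcript of the choroid plexus, exceeded 11 on the log2 scale in 4 libraries (HR_38, IR_213, IR_248 and IR_261).

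LOC102555248 was low in bHR, high in bLR and in between in bIR, with no overlap between any of the lines. Its level was 1.01 ± 0.205 FPM in bHR, 13.4 ± 1.91 FPM in bIR and 24.3 ± 3.83 FPM in bLR (mean ± SD, n = 6 rats each). The bHR level was 4.17% of the bLR level and the bIR level was 55.1% of it. The order held for every pair of rats from different lines, while the size of the difference varied between pairs.

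The bHR rats stood at 0.785 FPM (HR_2), 0.886 FPM (HR_34), 0.897 FPM (HR_22), 1.01 FPM (HR_10), 1.16 FPM (HR_38) and 1.34 FPM (HR_26). The bIR rats stood at 11.3 FPM (IR_248), 11.4 FPM (IR_149), 12.8 FPM (IR_293), 14.1 FPM (IR_261), 14.6 FPM (IR_213) and 16.1 FPM (IR_158). The bLR rats stood at 20.1 FPM (LR_48), 21.2 FPM (LR_20), 22.4 FPM (LR_16), 24.3 FPM (LR_32), 28.7 FPM (LR_8) and 29.1 FPM (LR_44). Every bLR rat lay above every bIR rat, and every bIR rat above every bHR rat. The wide gap between neighbouring rats lay between bHR and bIR (1.34 to 11.3 FPM), and the narrow one between bIR and bLR (16.1 to 20.1 FPM). The steps between line means in FPM were closer in size, with bIR at 106% of the midpoint of bHR and bLR.

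**Figure D1:**
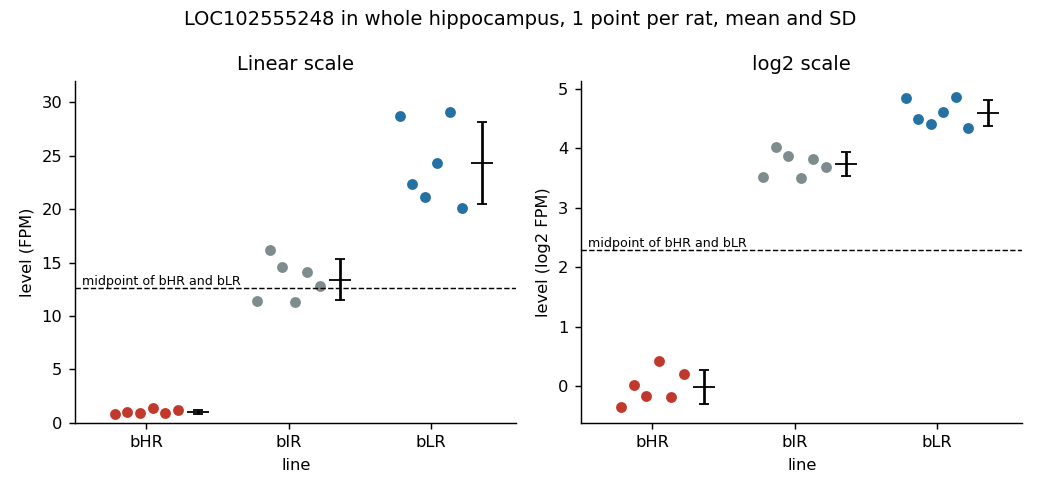
LOC102555248 in each rat by line, in FPM on the left and in log2 FPM on the right; points are rats, bars the mean ± SD of 6 rats, and the dashed line the midpoint of the bHR and bLR means on that scale. The bIR rats straddle the midpoint at 12.7 FPM on the linear scale and all lie above it on the log2 scale.

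Over the 36 pairs of a bLR with a bHR rat, the bLR rat was 15.03-fold to 37.1-fold higher, with a median of 24.4-fold. The difference in mean log2 value was 4.59 (SE 0.14), a 24.1-fold difference. The bIR rats were 8.45-fold to 20.6-fold above the bHR rats pair by pair, with a log2 difference of 3.74 (SE 0.14). Between bLR and bIR rats the ratio ran from 1.25 to 2.57, with a log2 difference of 0.86 (SE 0.14). The 1.25-fold gap from IR_158 up to LR_48 was smaller than the range within a line, where the highest rat was 1.71-fold above the lowest in bHR, 1.42-fold in bIR and 1.45-fold in bLR.

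Before scaling for library depth, the reads behind these levels stood in the same order when summed by line, though the ranges of bIR and bLR overlapped. The gene had 24 to 74 reads per library in bHR, 439 to 1073 in bIR and 927 to 1574 in bLR. It was thus detected in every bHR rat: HR_2, the lowest, had 24 reads, with an exact 95% Poisson interval of 15.4 to 35.7 that covers counting error only. Summed over a line, bHR had 246 reads of this gene in 235 M reads, bIR had 3740 in 273 M and bLR had 7063 in 292 M. At the bLR rate, the bHR libraries would have held 5691 reads of it.

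**Figure D2:**
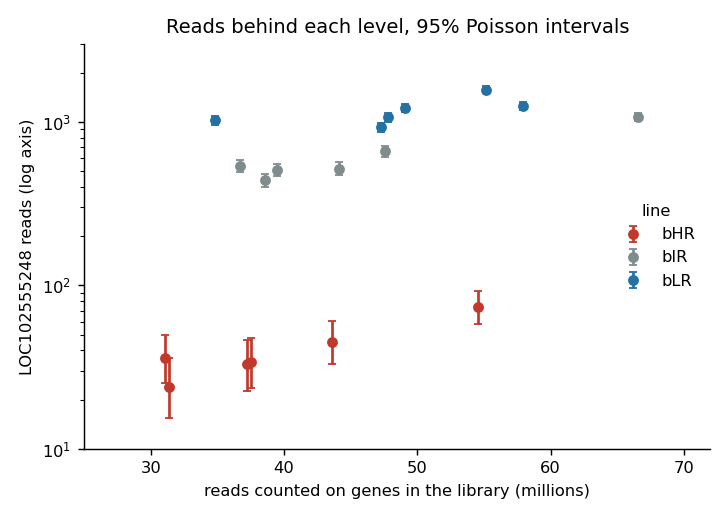
Reads of LOC102555248 in each library (log axis) against the library's total in M reads, with 95% Poisson intervals that cover counting error only; colours are lines. The bHR libraries hold 24 to 74 reads, with the most in the deepest of them, HR_26 at 54.6 M reads. The shallowest bLR library, LR_44 at 34.8 M reads, holds 1024.

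Rats within a line varied by more than counting alone gives in bIR and bLR, and by about as much in bHR. The coefficient of variation was 14.3% in bIR, where counting error averaged 4.14%, and 15.7% in bLR, where it averaged 2.95%. In bHR it was 20.2% beside a counting error of 16.4%. On the log2 scale the SD within lines was 0.24. The median SD was also 0.24 among the 1829 genes whose mean log2 value over the 18 rats lay within 0.5 of this gene's (2.77). Of these genes, 51.2% had a smaller SD. The pooled spread between rats thus lay in the middle of that of those 1829 genes, beside log2 differences between lines of 0.86 to 4.59. No line of LOC102555248 had that mean level, since the line means were -0.005 in bHR, 3.73 in bIR and 4.59 in bLR. The 1829 genes are therefore not matched to its level or counting error in any line.

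Where bIR stood between the lines depended on the scale. On the linear scale the midpoint of the line means was 12.7 FPM, and bIR stood 0.74 FPM above it (SE 1.11), at 106% of the midpoint. Of the 6 bIR rats, 4 lay above the midpoint and IR_248 and IR_149 below. Counting the bLR mean as 0 and the bHR mean as 1, the bIR position was 0.468 in FPM. On log2 values the midpoint corresponds to 4.90 FPM, all 6 bIR rats were above it, the mean difference was 1.44 (SE 0.12), and the position was 0.187. The deviation on the log2 scale and its near absence on the linear scale describe the same 18 values, since arithmetic and geometric midpoints lie far apart when lines differ this much.

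Against the rest of the table, LOC102555248 had the widest gap between bHR and bLR. The gene was chosen for its difference between lines in these same values, which favours such a rank, so the ranks below are description only. The gap from the highest bHR to the lowest bLR rat was 3.91 on the log2 scale. The next widest gaps between these lines, in either direction, were those of Ifit1, an interferon-induced gene, at 3.43, LOC102551994 at 2.18 and Tnnt1, a troponin T of slow muscle, at 2.01. Between bHR and bIR its gap of 3.08 was followed by 0.99 for Tnfsf8, a ligand of the tumour necrosis factor family. Between bIR and bLR its gap of 0.32 was second to that of Rassf6 (0.45), a Ras-association domain gene. These 5 comparison genes were named after their values were seen. As background, 0.909% of all genes had no overlap between bHR and bLR, 0.268% had none between bHR and bIR, and 0.507% had none between bLR and bIR.

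**Figure D3:**
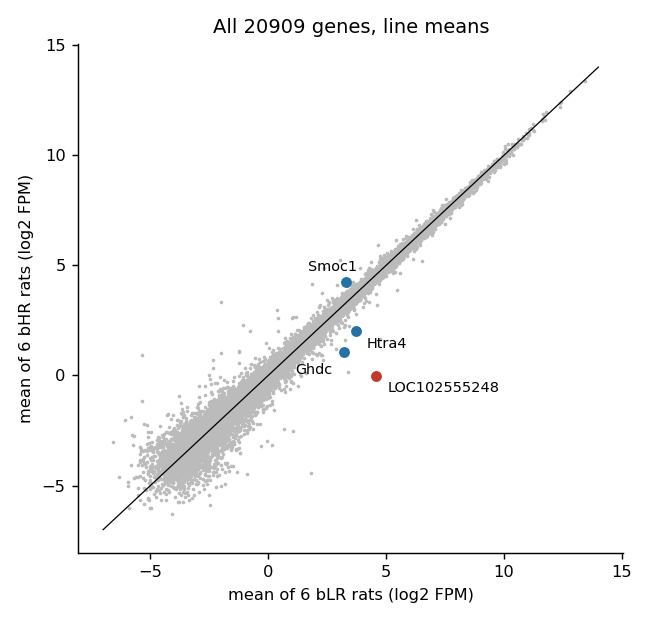
Mean log2 FPM of the 6 bHR rats against that of the 6 bLR rats for all 20909 genes, with the line of equal values; LOC102555248 is in red and 3 of the genes most like it in blue. LOC102555248, chosen for its difference between lines in these values, lies 4.59 below the line of equal values, apart from the other genes of its level.

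A larger mean log2 difference between bHR and bLR than that of LOC102555248 was found for 3 genes, with far more spread between rats. Taken as bHR minus bLR, the log2 difference of LOC102555248 was -4.59. That of Asb15, an ankyrin repeat gene, was 5.35 (SE 0.96) and that of Ifit1 6.30 (SE 1.22), both higher in bHR. That of Stra8, a germ cell gene, was -6.24 (SE 1.93), higher in bLR as LOC102555248 was. Asb15 and Stra8 too were named after their values were seen. The SE of LOC102555248 was 0.14, close to the median SE of all genes, 0.13. Ifit1 had 0 to 5 reads per library in bLR, whereas LOC102555248 had at least 24 reads in every library. Over all genes, limma called 93 between bHR and bLR (0.445%), and 21 of the 93 (22.6%) had a placeholder symbol, against 27.8% of all genes.

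All 3 lines were separate, with bIR in between, for 2 of the 20909 genes (0.00957%): LOC102555248 and Mfge8, whose secreted product helps phagocytes take up dying cells. Mfge8 ran the other way and over a much smaller range, at 167.4 to 188 FPM in bHR, 151 to 166.6 FPM in bIR and 119 to 141 FPM in bLR. The lowest bHR rat and the highest bIR rat for Mfge8 were nearly level.

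The genes whose levels most resembled those of LOC102555248 were found by Pearson correlation of log2 values over the 18 rats, among 15636 other genes with a mean log2 value of at least 0. The likeness is a description: all points share the same libraries, and the lines form separate clusters, so it mostly reflects the difference between lines. The 10 with the largest absolute r (0.831 to 0.922) comprised 6 that, like LOC102555248, were higher in bLR and 4 that were lower. All 10 had no overlap between bHR and bLR and all 10 were among the genes called by limma, from which nothing is read because likeness to this gene selected them. Their differences between bHR and bLR ran from 1.26-fold to 4.40-fold, against 24.1-fold for LOC102555248.

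The closest was Ghdc, a gene named for its GH3 domain (r = 0.922). It stood at 2.13 ± 0.532 FPM in bHR, 5.65 ± 1.36 FPM in bIR and 9.28 ± 1.62 FPM in bLR (SD, n = 6). Its bIR rats, at 4.29 to 8.24 FPM, overlapped the bLR range of 6.96 to 11.2 FPM, which those of LOC102555248 did not. Its bIR mean lay close to the linear midpoint of 5.71 FPM, at a position of 0.507.

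Also higher in bLR were the metal transporter Slc11a1 (r = 0.860), LOC102546937 (0.857), LOC102553895 (0.848), Bloc1s6, a subunit of the complex that forms lysosome-related organelles (0.842), and the secreted serine protease Htra4 (0.831). Htra4 stood at 4.49 ± 2.46 FPM in bHR, 11.6 ± 3.68 FPM in bIR and 13.5 ± 2.65 FPM in bLR, so that bIR was nearer to bLR (position 0.207). Bloc1s6 was the 1 gene of the 10 without overlap between bIR and bLR, at 18.3 to 22.6 FPM in bIR and 24.5 to 28.5 FPM in bLR, but its bIR and bHR rats overlapped. The genes with the opposite order were the linker histone gene H1f0 (r = -0.911), the DNA repair endonuclease gene Ercc5 (-0.910), Smoc1, a secreted calcium-binding protein (-0.862), and LOC691921 (-0.844). H1f0 differed by little, at 144 ± 3.75 FPM in bHR and 115 ± 3.36 FPM in bLR, with a small spread between rats.

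Over the 10 genes the linear position of bIR ran from 0.151 (Slc11a1) to 0.601 (Bloc1s6), with a median of 0.332. The choice of these genes depended on the measure: by Spearman correlation 2 of the 10 were kept among the top 10, and by Pearson correlation of linear values 6 were. Within lines, where the difference between lines is removed, the correlation of these 10 genes with LOC102555248 was between 0.037 and 0.474 in size. In RefSeq, 8 of the 10 were matched, and the 2 pairs of them on the same GRCr8 chromosome had at least 368 genes between them.

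**Figure D4:**
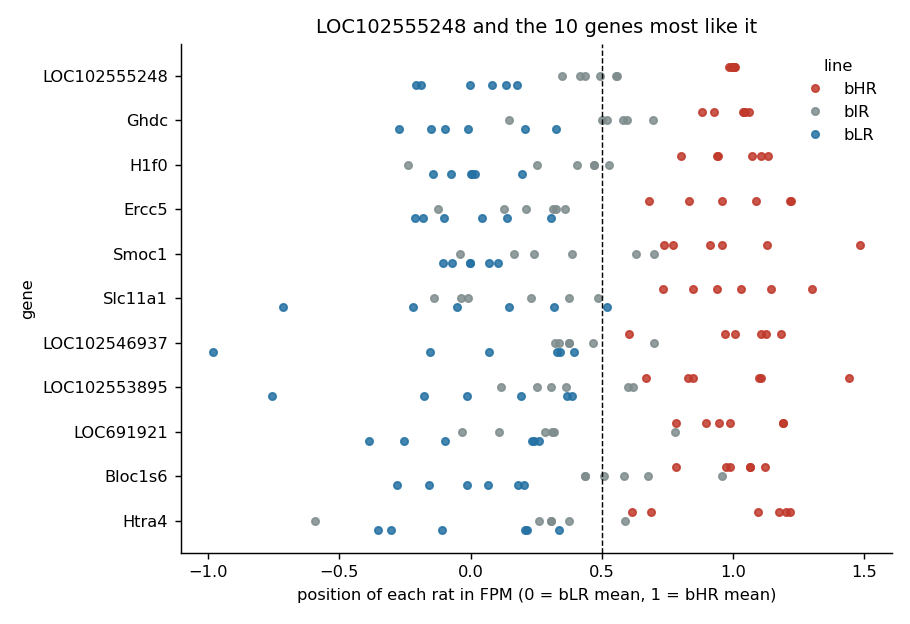
Position of each rat in FPM, where 0 is the mean of bLR and 1 that of bHR, for LOC102555248 and the 10 genes most like it; points are rats and colours lines. For LOC102555248 the bHR rats lie close together at 1 and the bIR rats stay clear of both lines, whereas the bIR rats of 9 of the other genes reach into the bLR range. Such overlap is the common case, since 0.507% of all genes had none between bLR and bIR.

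After subtraction of the line means, other genes were the most like it. The 4 with the largest absolute r over the 18 rats were Sptssb, a subunit of the enzyme that starts sphingolipid synthesis (-0.873), Zdhhc2, a palmitoyltransferase (-0.857), Pomk, a kinase acting on the sugars of dystroglycan (0.840), and the neuropeptide gene Vip (-0.836). These were picked as the extremes of 15636 genes, and in all 4 the bHR and bLR rats overlapped. That is the usual case and sets none of the 4 apart, as bHR was fully separate from bLR for only 0.909% of the 20909 genes. Sptssb, for example, stood at 6.32 to 11.6 FPM in bHR and 6.75 to 9.70 FPM in bLR.

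Whether the level followed behaviour was tested within lines, since behaviour was not used to choose the gene. The lines did not overlap in the locomotor score (2079 to 2501 in bHR, 323 to 886 in bIR and 20 to 44 in bLR), so no correlation over all rats is given. In limma models with line means and 1 common slope, the log2 value changed by -0.03 (SE 0.06) per within-line SD of the locomotor score (143 units) and by -0.01 (SE 0.06) per within-line SD of the time spent in the open arms of the elevated plus maze (13.2 percentage points). The slopes were -0.06 (SE 0.06) for time immobile, 0.08 (SE 0.06) for distance travelled and 0.01 (SE 0.06) for faecal boli. Scores were not rescaled by line, so a line with a narrow range of a score weighed little in its slope. For the locomotor score this was bLR: the slope was -0.0319 to -0.0298 without any single bLR rat, but 0.0346 without IR_149. For time immobile most of the spread was in bLR (36.1 to 197, against 22.0 to 41.2 in the other lines). The slope on distance rested on IR_158, whose distance was 29024 (unit not stated) against 1141 to 5410 in the other rats, and without it was -0.02. The maze scores of bIR were taken at a younger age and a longer time before sacrifice than those of bHR and bLR. None of the 5 slopes passed (limma adjusted p from 0.858 to 1.00 over all genes, unadjusted p from 0.230 to 0.867). Over all genes limma called 0.00957% for time immobile and 0% for each of the other scores, while 437 to 1175 genes per score had an unadjusted p under 0.05.

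In each line taken alone, the same was found for 6 relations. With the locomotor score, Pearson's r was 0.289 in bHR, -0.619 in bIR and 0.567 in bLR (Spearman's rho 0.543, -0.371 and 0.371). With open arm time, r was 0.244 in bHR, -0.670 in bIR and -0.052 in bLR (rho -0.086, -0.714 and -0.029). The exact two-sided permutation p of r ran from 0.135 to 0.938 with n = 6 rats, and from 0.514 to 0.938 adjusted over the 6 relations; for rho it ran from 0.136 to 1.00, and from 0.746 to 1.00 adjusted. Without the 2 rats farthest from the median score, r was 0.110, 0.359 and 0.107 for the locomotor score and -0.320, -0.416 and -0.833 for open arm time, each over 4 rats. The sign thus changed in 2 of the 6, for the locomotor score in bIR without IR_149 and IR_158 and for open arm time in bHR without HR_26 and HR_38. With 6 rats a line, only strong relations could have been detected.

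**Figure D5:**
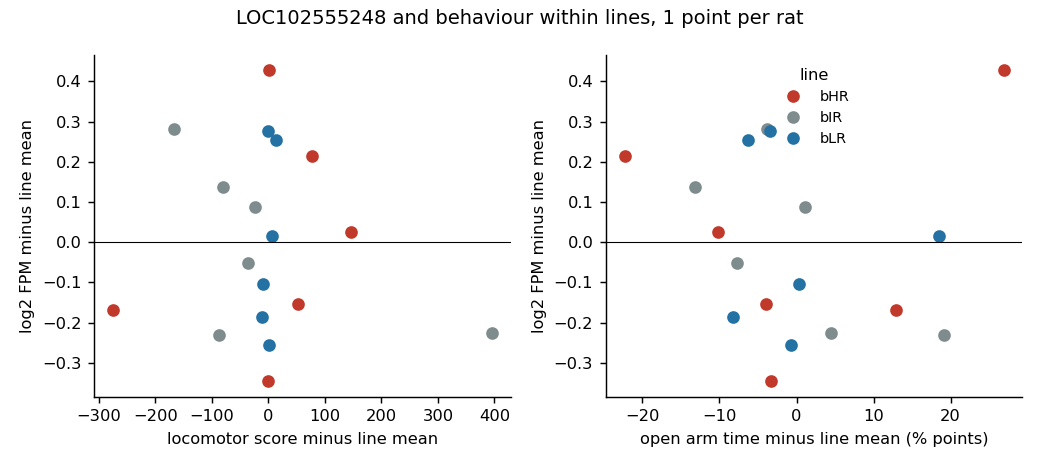
LOC102555248 in log2 FPM minus the line mean against the locomotor score (left) and the percent time in the open arms (right), each minus the line mean; points are rats and colours lines. The common slopes are -0.03 and -0.01 log2 units per within-line SD of the score, each with an SE of 0.06. The bLR rats span a narrow range of the locomotor score and weigh little in its slope.

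The same form of test was made against library depth and choroid plexus content. With read total, r was 0.661 in bHR, 0.624 in bIR and -0.382 in bLR (rho 0.371, 0.371 and -0.200). With log2 Ttr, r was 0.066 in bHR, 0.053 in bIR and -0.635 in bLR (rho -0.200, 0.029 and -0.371). None of the 6 passed an exact two-sided permutation test (n = 6; p of r from 0.158 to 0.947, adjusted from 0.319 to 0.947; p of rho from 0.497 to 1.00, adjusted from 0.857 to 1.00). Without the 2 libraries farthest from the median, r over the other 4 was 0.998, -0.686 and 0.940 for read total and -0.154, -0.587 and 0.915 for Ttr, so the sign changed in 5 of the 6. The deepest libraries of bHR (HR_26) and bIR (IR_158) had the highest level in their line, and the shallowest library of bLR (LR_44) had the highest level in bLR.

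Without the 4 libraries rich in Ttr, bHR stood at 0.985 ± 0.215 FPM (n = 5) and bIR at 13.4 ± 2.45 FPM (n = 3). The bLR level stayed at 24.3 ± 3.83 FPM (n = 6), since no bLR library was removed. The log2 difference, bHR minus bLR, was -4.64. In bLR, LR_20 (1635 FPM of Ttr) and LR_48 (929 FPM) stood above the other rats (75.4 to 136 FPM). These libraries also had the lowest LOC102555248 levels of bLR, 21.2 and 20.1 FPM. Summed marker levels of hippocampal neurons, astrocytes, oligodendrocytes, microglia, endothelium (3 of 5 markers measured), thalamus and ependyma differed between line medians by 1.03-fold to 1.20-fold. Those of the choroid plexus differed by 5.34-fold and those of meningeal fibroblasts by 1.91-fold. In the first 7 lists the bLR median over the bHR median ran from 0.834 (astrocytes) to 1.17 (endothelium). Of the 58 measured markers, limma called 1 between bHR and bLR, a microglia marker, against 0.445% of all genes. For choroid plexus, the 10 measured markers of 10 summed to 308 to 5314 FPM in bHR, 380 to 16757 FPM in bIR and 343 to 2470.5 FPM in bLR. These ranges overlap between lines. Whether choroid plexus content bears on the difference of LOC102555248 between lines was not tested. In whole tissue, fewer cells that express a gene and less RNA per cell cannot be told apart, and which cells carry this transcript was not tested.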

How the data were processed

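The whole hippocampus of 18 rats was sequenced as stranded polyA libraries, 1 per rat. The authors aligned reads to Rnor_6.0 with Subread, counted them per gene with featureCounts on Ensembl v.81 annotation, dropped genes lacking an official symbol or 10 counts in 4 libraries, and deposited log2 depth-scaled fragments (log2 FPM) from voom in limma, per the labels' protocols. The submitters' processing notes give R 3.2.2 and no version of Subread, featureCounts or limma. Taking the lowest value of each column as 0 reads plus an offset of 0.5, all 376362 values (100%) were whole reads to within 0.02. By these reads, 1258 of the 20909 genes fall short of the stated count filter, and 5804 carry a placeholder symbol (LOC or RGD), so the stated filters do not describe every gene. The handling of reads shared between near-identical genes is not described.

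Gene symbols, in capitals in the table, are written here in rat style. Line differences came from limma 3.58.1 (R 4.3.3) on the deposited log2 values, with 3 line means over 18 rats and empirical Bayes with a trend; tests were two-sided, with Benjamini-Hochberg adjustment over 20909 genes and a threshold of 0.05. Behavioural slopes used 1 model per score. FPM are back-transformed log2 values. Correlations within lines were tested by exact permutation (720 orders of 6 rats). The fits were tested on simulated reads.

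Named were, by rule, the gene itself, the 10 genes most like it over 18 rats, the 4 most like it within lines, genes whose 3 lines do not overlap, and 5 markers (Ttr, Prox1, Neurod6, Gfap and Mbp); others are said to be named after their values were seen. The gene, rules and marker lists were chosen with earlier results of these data known. A planned comparison of neighbouring genes was not run, since LOC102555248 was not matched to the gene table. Alternatives covered scaling, offset, scale, filters, variance models, covariates and left-out rats. Replicates are separate rats of a line.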

Additional observations from a re-analysis of the deposited data

Results flagged for a closer look

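Of 66 checks of a single rat against the other 5 of its line (21 genes named here and the read total, in 3 lines), 5 found a rat whose gap to its nearest neighbour, as a share of the range of the line, exceeded Dixon's 95% critical value; chance gives about 5%. LOC102555248 itself was in none of them. For Htra4, IR_248 stood at 18.8 FPM and the other bIR rats at 8.21 to 11.1 FPM (gap 0.631 of the range on the log2 scale). For LOC102546937, IR_261 stood at 2.76 FPM and the other bIR rats at 3.57 to 4.06 FPM (0.667). For H1f0, IR_213 stood at 108 FPM and the other bIR rats at 122 to 130.1 FPM (0.665). For Mbp, a myelin gene used as a marker, LR_48 stood at 16366 FPM and the other bLR rats at 9690 to 10781 FPM (0.796). The read total of IR_158 was 66.6 M, the highest of bIR (0.637); this rat also had the highest LOC102555248 level of bIR, 16.1 FPM.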

How the results depend on the processing

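The log2 differences of LOC102555248 between lines moved by less than the spread within lines under median centring, a trimmed mean of log ratios, quantile normalization, an offset of 2 reads and without the 4 libraries rich in Ttr. Leaving out each rat gave -4.68 to -4.52 for bHR minus bLR, -3.82 to -3.67 for bHR minus bIR and 0.80 to 0.91 for bLR minus bIR. The bIR deviation from the midpoint of log2 values was 1.38 to 1.49 without each rat. As the log2 ratio of the bIR mean to the midpoint of linear means it was 0.0816, since bIR stood at 106% of that midpoint. The linear position was 0.445 to 0.492 without each rat. The count of 93 genes between bHR and bLR was 194 with array weights, 42 with the read total as a covariate and 46 to 138 without a rat (46 without LR_8, 52 without HR_10, 53 without HR_34, 57 without LR_44, 59 without LR_20); the cause was not tested.

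No behavioural slope passed in any of the 105 fits (limma adjusted p from 0.718). Slopes changed sign without the 4 libraries rich in Ttr for open arm time (0.0751) and faecal boli (-0.0503). Without single rats the slopes ran from -0.0680 to 0.0346 for the locomotor score, from -0.103 to 0.0201 for open arm time, from -0.0202 (without IR_158) to 0.0891 for distance, from -0.0382 to 0.0709 for faecal boli and from -0.107 to -0.0126 for time immobile. In bHR, Spearman's rho had the opposite sign to Pearson's r for open arm time (-0.086) and for Ttr (-0.200); rho for Ttr and read total was added after seeing the data. No paired analysis was possible because the lines share no replicate numbers. Comparisons of neighbouring genes were not run. In bHR, 24 to 74 reads limit the precision of the level.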
